A study of Mus musculus with 24 samples.

Results

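Cytosolic sulfotransferases form a family of liver enzymes, and 6 of their genes, Sult1a1, Sult1b1, Sult1c2, Sult1d1, Sult1e1 and Sult5a1, were followed here across 3 mouse strains and 2 diets. The genes were taken as every array probe that the scanner files assign to one of these 6 symbols. This gave 9 probes of 55681 gene probes, and 8 of the 9 passed the filter on background. All 6 genes were among the 15084 genes tested. The members were chosen by the measured strain difference of Sult1e1 on the control diet, so the levels on that diet, and everything computed from those levels for Sult1e1, are given as a description with no test.

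Liver RNA was profiled on 24 arrays, 4 for each of 6 groups. The groups on the deficient diet were male WSB/EiJ, C3H/HeJ and A/J mice that ate a methyl-donor-deficient diet, low in methionine (0.17%) and without choline or folic acid, for 12 weeks from 8 weeks of age. The groups on the control diet were male WSB/EiJ, C3H/HeJ and A/J mice of the same age (20 weeks at collection) on the same base diet, in which methionine was 0.4%, folic acid 2 mg/kg and choline bitartrate 0.3%. Both diets were amino acid-defined and iron-supplemented, mice of each strain were allocated to a diet at random, and all 3 strains are inbred. A/J and C3H/HeJ are classical laboratory strains, whereas WSB/EiJ is derived from wild mice. The labels number the samples of a group but do not tie each to an animal of its own, and the spread that p-values rest on may be technical.

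Values are log2 signals relative to the 75th percentile of the gene probes of the same array, so that 0 is the signal of a probe at that percentile and each unit is a doubling. On an array 44.4% to 56.0% of gene spots stood well above background, 0 were saturated, and each array correlated with its own group at a mean r of 0.979 to 0.993. All 10 hepatocyte markers were well above background on every array of every group, so the defining markers of the labelled tissue, liver, were present. Differences were tested with limma over all 15084 genes, and a gene is called changed at a Benjamini-Hochberg adjusted p under 0.05. Much of the transcriptome was called: the diet effect passed the test for 74.1% of genes in WSB/EiJ, 48.5% in C3H/HeJ and 10.7% in A/J. The scaling sets the balance of these calls. In WSB/EiJ 32.1% of the calls were higher on the deficient diet (48.4% with quantile normalization, 87.4% with scaling on spike-in probes), in C3H/HeJ 36.2% (50.8% and 92%), and in A/J 54.5% (61.8% and 95.9%). Scaling on spike-ins moved the median diet difference of all genes to 0.58 in WSB/EiJ, 0.37 in C3H/HeJ and 0.31 in A/J, against −0.34, −0.16 and −0.06 as scaled here.

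Sulfotransferases move a sulfonate group from the donor 3′-phosphoadenosine 5′-phosphosulfate (PAPS) onto hydroxyl or amino groups of hormones, neurotransmitters, bile acids and drugs, which makes most of them more soluble and less active. Sult1e1 is the estrogen sulfotransferase, which inactivates estrogens at low concentrations. In mice it is abundant in testis and low in healthy adult liver, and its liver RNA is known to rise in obese and diabetic mice. Sult1a1 acts on simple phenols, Sult1b1 on phenols and thyroid hormones, and Sult1d1 on catecholamines in mice. Sult1c2 is known in rodents from stomach and kidney as well as liver, and the substrates of Sult5a1 are little known.

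The 60-base probes behind the 3 genes with the largest differences are shown, because each level below is the signal of 1 such sequence. They are written as the array files give them, 5′ to 3′, with positions in mouse build mm9 (NCBI37).
Sult1e1, chr5:88005187-88005246, minus strand: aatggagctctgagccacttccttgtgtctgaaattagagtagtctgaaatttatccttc
Sult1c2, chr17:53969205-53969264, minus strand: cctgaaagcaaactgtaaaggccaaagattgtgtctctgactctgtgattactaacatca
Sult5a1, chr8:125666951-125667010, minus strand: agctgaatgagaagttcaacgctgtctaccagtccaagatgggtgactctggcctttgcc
The probe of Sult1e1 is A_51_P493649, that of Sult1c2 is A_51_P353895 and that of Sult5a1 is A_51_P471458. Whether these sequences match the transcripts of each strain was not tested.

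Sult1e1 RNA separated WSB/EiJ livers from those of the other 2 strains on both diets. In WSB/EiJ livers it stood at 5.05, 4.35, 5.64 and 5.55 on the deficient diet, against 4.02, 5.03, 4.64 and 5.80 on the control diet. In C3H/HeJ livers the values were −3.18, −1.63, −2.11 and −0.69 on the deficient diet, against −3.48, −1.73, −3.27 and −3.68 on the control diet. A/J livers had −1.69, −2.55, −1.79 and −1.18 on the deficient diet, against −2.96, −2.49, −2.71 and −2.65 on the control diet. The lowest WSB/EiJ array lay far above the highest array of the other strains, and within each strain the diets overlapped. One C3H/HeJ array on the control diet, replicate 4, was not well above background, and every other array was.

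**Figure D1:**
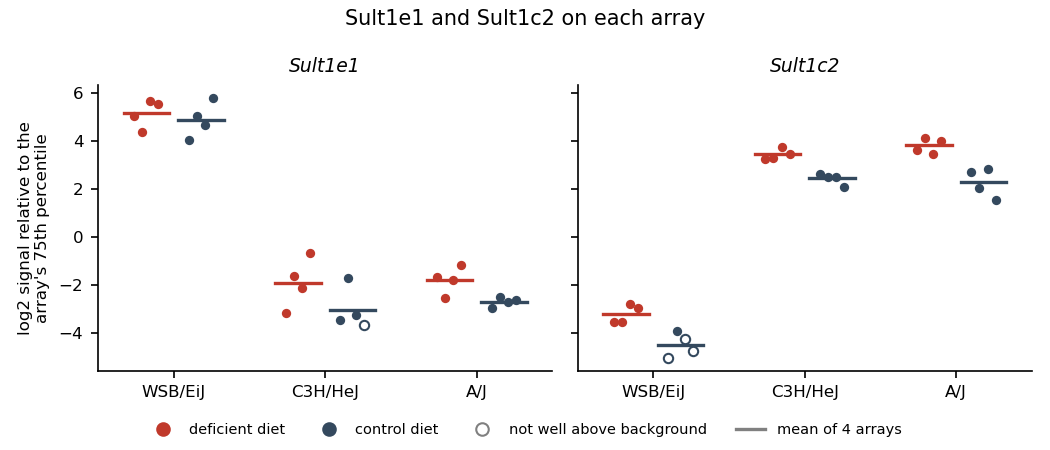
Sult1e1 (left) and Sult1c2 (right) on each of the 24 arrays as log2 signal relative to the array's 75th percentile, by strain, with the deficient diet in red and the control diet in dark blue. Bars are means of 4 arrays and open points were not well above background. The 8 WSB/EiJ arrays are the highest for Sult1e1 and the lowest for Sult1c2.

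The group means of Sult1e1 fell into 2 blocks. WSB/EiJ averaged 5.15 ± 0.59 on the deficient diet and 4.87 ± 0.75 on the control diet (SD, n = 4 each), and these 2 groups overlapped. The next level was A/J on the deficient diet at −1.80 ± 0.56, followed by C3H/HeJ on the deficient diet at −1.90 ± 1.03, A/J on the control diet at −2.70 ± 0.20 and C3H/HeJ on the control diet at −3.04 ± 0.89. Each of these 4 groups overlapped its neighbour in that order. On the control diet the WSB/EiJ mean was 7.58 above A/J and 7.91 above C3H/HeJ, the difference for which the family was chosen. With normexp background correction, which compresses dim signals, these control differences were 6.02 and 6.1. The deficient arrays, which the choice did not use, allow a test of the same contrast. There WSB/EiJ exceeded A/J by 6.95 ± 0.48 (SE), a 124-fold difference (limma adjusted p = 3.0e-10, 95% interval 5.94 to 7.95), and exceeded C3H/HeJ by 7.05 ± 0.48, or 132-fold (limma adjusted p = 3.0e-10, interval 6.04 to 8.05). Within the 3 slides WSB/EiJ minus A/J was 6.84, 7.5 and 6.64, and WSB/EiJ minus C3H/HeJ was 6.45, 8.82 and 6.58. C3H/HeJ and A/J on the deficient diet differed by −0.10 ± 0.48 (limma adjusted p = 0.914, interval −1.10 to 0.90).

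The diet differences of Sult1e1 share the control arrays of the choice and have no test. Deficient minus control was 0.27 in WSB/EiJ, 1.14 in C3H/HeJ and 0.90 in A/J, each with an SE of 0.48. Within slides the C3H/HeJ difference was 2.28, 0.19 and 0.10, so 1 slide carried most of it, whereas A/J had 1.17, 0.84 and 0.88 and WSB/EiJ −0.18, 0.60 and 0.93. WSB/EiJ minus A/J in diet effect was −0.63, WSB/EiJ minus C3H/HeJ −0.86 and C3H/HeJ minus A/J 0.24, each with an SE of 0.68. Markers of adipose tissue and testis, where the gene is also known to be expressed, were read beside it. The summed adipose markers ranged from 0.181 to 1.23 times the 75th percentile on the deficient diet, against 0.159 to 0.281 on the control diet, in WSB/EiJ, from 0.208 to 0.415 against 0.0713 to 0.203 in C3H/HeJ, and from 0.528 to 3.8 against 0.268 to 12.3 in A/J, with Lep well above background on no array of any group. The summed testis markers ranged from 0.423 to 0.911 against 0.907 to 1.62 in WSB/EiJ, from 0.299 to 0.51 against 0.482 to 0.669 in C3H/HeJ, and from 0.747 to 1.39 against 0.889 to 1.45 in A/J, with Ldhc well above background on no array. On the deficient diet both WSB/EiJ sums overlapped those of A/J. On the control diet the testis sum of WSB/EiJ overlapped that of A/J and lay above that of C3H/HeJ. The part of either tissue in the Sult1e1 levels was not tested.

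Markers of the liver's cell types also differed between the groups, as did much of the transcriptome. On the deficient diet 50.3%, 31% and 4.89% of all genes were called lower in WSB/EiJ, C3H/HeJ and A/J, and 23.8%, 17.5% and 5.85% higher. The summed hepatocyte markers ranged from 3830 to 4690 times the 75th percentile in WSB/EiJ on the deficient diet, against 8330 to 9130 on the control diet, from 4470 to 7320 against 7110 to 10300 in C3H/HeJ, and from 5820 to 8120 against 7590 to 9540 in A/J. Of the 10 markers, 10, 9 and 2 were lower by the test in WSB/EiJ, C3H/HeJ and A/J, but 3, 2 and 1 with either quantile normalization or spike-in scaling. On the deficient diet 1 was higher and 8 lower in WSB/EiJ than in A/J, where 60.6% of all genes were called. Macrophage markers summed to 154 to 195 against 27.3 to 34.1 in WSB/EiJ, with 8 of 9 higher, to 97.9 to 145 against 51.8 to 85.3 in C3H/HeJ, with 7 of 9 higher, and to 147 to 178 against 72.4 to 140 in A/J, with 4 of 9 higher. Stellate cell and fibroblast markers summed to 221 to 341 against 52.6 to 76.9 in WSB/EiJ (8 of 9 higher), 81 to 207 against 46.8 to 68 in C3H/HeJ (7 of 9) and 75.5 to 129 against 54.4 to 108 in A/J (2 of 9). Biliary markers summed to 11.3 to 49.6 against 3.55 to 5.16 in WSB/EiJ (6 of 6 tested higher), 5.01 to 25.2 against 3.44 to 4.34 in C3H/HeJ (2 of 6) and 5.44 to 9.78 against 3.81 to 4.68 in A/J (0 of 6). Endothelial markers summed to 21.3 to 33.8 against 33.5 to 40.5 in WSB/EiJ (1 higher and 3 lower of 7, but 4 higher and 0 lower with spike-in scaling), 38.9 to 53.7 against 34.8 to 45.7 in C3H/HeJ (2 higher, 0 lower) and 55.8 to 75.8 against 46.9 to 59.2 in A/J (1 higher, 0 lower). Lymphocyte markers overlapped between diets in each strain, with 2 higher and 2 lower of 6 in WSB/EiJ, 1 and 1 in C3H/HeJ, and 0 and 1 in A/J. In bulk liver, fewer hepatocytes and less of an RNA per hepatocyte cannot be told apart. The part of these levels in the results on the members was not tested.

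Genes whose pattern over the 24 arrays was most like that of Sult1e1 also set WSB/EiJ apart. Of 14698 genes compared, the highest Pearson correlations were those of Mthfsd (0.973), Tmem9b (0.972), Serpina3i (0.972), Susd2 (0.968), Gm12059 (0.961) and Gm13698 (0.961). Mthfsd averaged 3.05 in WSB/EiJ on the deficient diet and 2.87 on the control diet, with all 4 other group means between −0.95 and −0.07. Susd2 averaged 0.26 on the deficient diet and −0.03 on the control diet in WSB/EiJ, with the other group means between −3.28 and −2.36. The lowest correlations were those of Prim2 (−0.982), Rbm45 (−0.979) and 5830417I10Rik (−0.976). Prim2, a DNA primase subunit, averaged −4.16 in WSB/EiJ on the deficient diet and −4.24 on the control diet, with the other 4 means between −0.40 and −0.19. Because the arrays form 2 blocks by strain, such a correlation mostly records which genes differ between WSB/EiJ and the other strains.

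On the deficient diet the tested genes beside Sult1e1 on chromosome 5 were lower in WSB/EiJ or not called. In RefSeq order (assembly GRCm38.p6) the 11 nearest protein-coding genes on one side of it are 9 Ugt2 genes, Sult1b1 and Sult1d1, and the 4 nearest on the other side are casein genes, which did not pass the background filter. The 8 Ugt2 genes tested, which encode enzymes that attach glucuronic acid to steroids and drugs, were all lower in WSB/EiJ on the deficient diet, by −1.44 to −0.91 against A/J and by −1.25 to −0.80 against C3H/HeJ, with limma adjusted p of at most 0.00651, in comparisons where 60.6% and 52.4% of all genes were called. With spike-in scaling all 8 were also called lower, and with normexp 7 of 8. Sult1b1 differed by −1.45 from A/J, the adjacent Sult1d1 by −0.12 and Sult1e1 itself by 6.95. These are differences on the deficient diet alone. On the control diet, as a description, WSB/EiJ minus A/J was 0.65 for Sult1d1 and −0.38 for Sult1b1. WSB/EiJ minus C3H/HeJ was 0.68 and −0.05 there. Those of the Ugt2 genes on the control diet are not given. Several Ugt2b genes are near-identical copies, and how far their probes share signal was not tested.

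**Figure D2:**
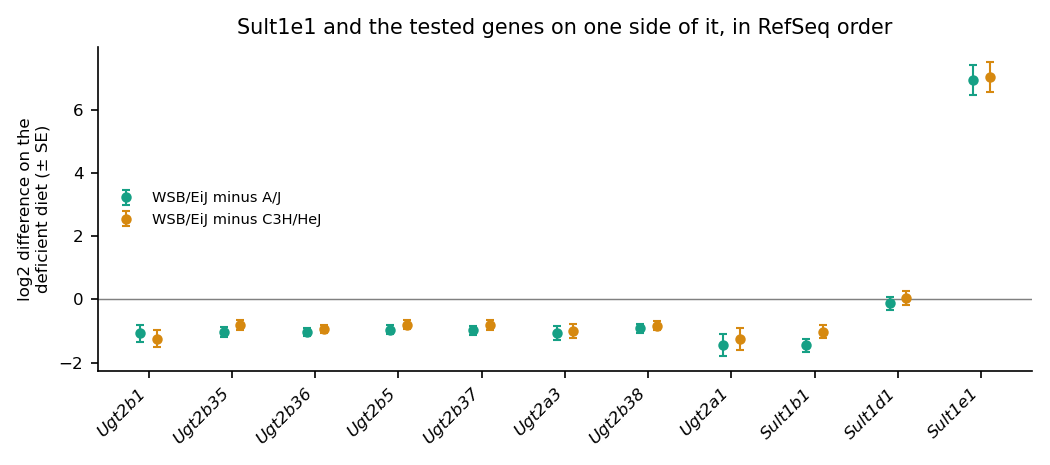
Log2 difference ± SE between strains on the deficient diet for Sult1e1 and the tested genes on one side of it, in RefSeq gene order along the x axis. WSB/EiJ minus A/J is in green and WSB/EiJ minus C3H/HeJ in orange. Sult1e1 is near 7, Sult1d1 near 0, and Sult1b1 and the 8 Ugt2 genes lie below 0.

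The 300 bases of the RefSeq reference around the Sult1e1 start site (250 before, 50 after) are shown as the region beside the gene with the strain contrast, and were not read from any of these strains. They lie at chr5:87591562-87591861 on the minus strand of GRCm38.p6, with the 1 match to a nuclear receptor motif (AGGTCA or, on the other strand, TGACCT) in capitals, from −113 to −108 relative to the start.
Sult1e1 promoter: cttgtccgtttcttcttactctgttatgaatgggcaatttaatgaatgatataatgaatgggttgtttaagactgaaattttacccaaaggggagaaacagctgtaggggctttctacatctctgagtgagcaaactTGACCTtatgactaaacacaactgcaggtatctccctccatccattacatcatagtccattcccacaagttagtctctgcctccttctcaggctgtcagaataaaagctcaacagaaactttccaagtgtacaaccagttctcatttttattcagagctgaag
The same motif was in 16.3% of 32851 promoters and in 2 of 7 promoters of the members. The HNF1 motif GTTAAT was in 7.1% of all promoters and in 2 of the 7, the motif AGAACA of the glucocorticoid and androgen receptors in 19% and in 3 of the 7, and TTCNNNGAA, the STAT motif, in 8.3% and in 0 of the 7. Both strands were searched, and a match only says that the letters are present.

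Sult1c2 showed the opposite strain order and was the one member called higher on the deficient diet, in C3H/HeJ, A/J and, from a control level near background, WSB/EiJ. In WSB/EiJ livers it stood at −3.56, −3.55, −2.80 and −2.97 on the deficient diet, against −5.04, −3.91, −4.27 and −4.75 on the control diet. C3H/HeJ livers had 3.25, 3.29, 3.75 and 3.44 on the deficient diet, against 2.62, 2.51, 2.51 and 2.09 on the control diet. The A/J values were 3.63, 4.12, 3.46 and 4.01 on the deficient diet, against 2.71, 2.04, 2.81 and 1.55 on the control diet. The diets did not overlap in any strain, and every WSB/EiJ array was far below every array of the other strains. On the control diet 1 of 4 WSB/EiJ arrays was well above background, so the low level there is close to the limit of the array and the diet difference in WSB/EiJ is uncertain.

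Sult1c2 rose on the deficient diet by 1.00 ± 0.27 in C3H/HeJ (2-fold, limma adjusted p = 0.00526) and by 1.53 ± 0.27 in A/J (2.88-fold, adjusted p = 0.00123). The fitted difference in WSB/EiJ, 1.27 ± 0.27 (adjusted p = 3.0e-04), rests on a control group with 1 of 4 arrays well above background, and with normexp background correction it was 0.34 and not called (adjusted p = 0.116). Of all genes, 23.8%, 17.5% and 5.85% were called higher in WSB/EiJ, C3H/HeJ and A/J. Spike-in scaling gave 2.18, 1.53 and 1.90 in WSB/EiJ, C3H/HeJ and A/J. No difference between the strains' diet effects was called: WSB/EiJ minus A/J was −0.26 (interval −1.05 to 0.54), WSB/EiJ minus C3H/HeJ 0.27 (−0.53 to 1.07) and C3H/HeJ minus A/J −0.53 (−1.32 to 0.27), although the first of these was −1.19 (adjusted p = 0.00129) with normexp. Both differences with WSB/EiJ share its control level near background. Within slides the diet difference was 0.95, 1.11 and 1.77 in WSB/EiJ, 1.51, 0.69 and 0.78 in C3H/HeJ and 0.75, 1.25 and 1.83 in A/J. Between strains on the deficient diet, WSB/EiJ was lower than A/J by −7.02 ± 0.27 (130-fold, limma adjusted p = 3.9e-14) and lower than C3H/HeJ by −6.66 ± 0.27 (101-fold, adjusted p = 9.2e-14). These became −5.21 and −4.88 with normexp. Within slides WSB/EiJ minus A/J was −7.01, −6.87 and −6.89. C3H/HeJ minus A/J was −0.37 (adjusted p = 0.368, interval −0.93 to 0.20). The 7 stomach and intestine markers, summed, ranged from 47.1 to 67.6 times the 75th percentile on the deficient diet, against 33.6 to 46.6 on the control diet in WSB/EiJ, from 91.4 to 157 against 68.3 to 77.5 in C3H/HeJ, and from 94.2 to 104 against 40.9 to 60 in A/J. Of 3 tested, 2 were higher on the deficient diet in WSB/EiJ, 3 in C3H/HeJ and 1 in A/J, and on that diet 2 were lower in WSB/EiJ than in A/J and 1 than in C3H/HeJ. Of the 7, Cdx2, Gkn1 and Muc2 were well above background on no array, while 2 or 3 were so on all arrays of each group. The 7 kidney markers summed to 0.468 to 1.19 on the deficient diet, against 1.41 to 2.33 on the control diet in WSB/EiJ (3 of 3 tested lower, 0 with spike-in scaling). Their sums overlapped between diets in C3H/HeJ (0.432 to 0.695 against 0.618 to 1, 1 of 3 lower). They also overlapped in A/J (0.484 to 0.819 against 0.622 to 1.17, 0 of 3 lower). Umod and Nphs1 were well above background on no array. Among all genes 50.3%, 31% and 4.89% were called lower on the deficient diet in WSB/EiJ, C3H/HeJ and A/J. On that diet 60.6% and 52.4% differed between WSB/EiJ and A/J or C3H/HeJ. The part of these markers in the Sult1c2 result was not tested.

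Sult5a1 was lower on the deficient diet in all 3 strains, with the largest spread between arrays of any member. WSB/EiJ livers had −1.29, −1.75, −0.46 and −1.07 on the deficient diet, against 3.13, 2.88, 3.01 and 2.80 on the control diet. C3H/HeJ livers had −0.72, −1.99, 0.11 and 1.64 on the deficient diet, against 1.30, 2.49, 2.58 and 2.36 on the control diet. A/J livers had −0.81, −2.05, −3.72 and −1.79 on the deficient diet, against −0.08, −0.23, 1.06 and −0.97 on the control diet. The WSB/EiJ diets were far apart, while 1 C3H/HeJ deficient array and 1 A/J deficient array reached into the range of their controls.

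The difference in Sult5a1 was −4.10 ± 0.62 in WSB/EiJ (17.1-fold, limma adjusted p = 6.4e-06), −2.42 ± 0.62 in C3H/HeJ (5.37-fold, adjusted p = 0.00344) and −2.04 ± 0.62 in A/J (4.1-fold, adjusted p = 0.0384), where 50.3%, 31% and 4.89% of all genes were called lower. Within slides the differences were −4.19, −3.34 and −4.54 in WSB/EiJ, −1.49, −2.66 and −4.48 in C3H/HeJ and −3.64, −2.98 and −0.21 in A/J. The A/J call was lost without A/J control replicate 1, 2 or 3 or without A/J deficient replicate 2 or 3 (−2.09 to −1.49, adjusted p 0.0669 to 0.157). WSB/EiJ minus A/J in diet effect was −2.06 ± 0.87 and just missed the threshold (limma adjusted p = 0.0543, interval −3.88 to −0.24). It was called without A/J control replicate 3 (−2.43), A/J deficient replicate 3 (−2.60) or WSB/EiJ deficient replicate 3 (−2.29). WSB/EiJ minus C3H/HeJ in diet effect was −1.67 (adjusted p = 0.156, interval −3.49 to 0.15), with a range of −2.25 to −1.05 when 1 array was left out and a call without C3H/HeJ deficient replicate 2 (−2.25, adjusted p = 0.0381), and C3H/HeJ minus A/J was −0.39 (adjusted p = 0.822). On the deficient diet C3H/HeJ exceeded A/J by 1.85 ± 0.62 (limma adjusted p = 0.0359), a call lost without A/J deficient replicate 2, 3 or 4 or C3H/HeJ deficient replicate 3 or 4 (1.22 to 1.95, adjusted p 0.0530 to 0.134). Within slides this strain difference was 4.59, 1.2 and −1.18, so its sign was not the same on every slide. On the same diet WSB/EiJ minus C3H/HeJ was −0.90 (adjusted p = 0.227), and −1.48 (adjusted p = 0.0399) without C3H/HeJ deficient replicate 2. WSB/EiJ minus A/J was 0.95 (adjusted p = 0.188, interval −0.34 to 2.24). The second Sult5a1 probe was above background on 0 of 24 arrays and carries no level.

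Sult1a1, the phenol sulfotransferase, had a diet effect called in WSB/EiJ and not called in the other strains. WSB/EiJ livers had 5.70, 5.14, 5.62 and 4.69 on the deficient diet, against 7.10, 6.42, 7.13 and 6.58 on the control diet, with no overlap. C3H/HeJ livers had 4.95, 5.32, 5.96 and 6.18 on the deficient diet, against 6.07, 5.89, 6.18 and 6.27 on the control diet. A/J livers had 5.59, 5.91, 5.57 and 6.01 on the deficient diet, against 5.98, 5.70, 6.05 and 5.65 on the control diet. In these 2 strains the diets overlapped.

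**Figure D3:**
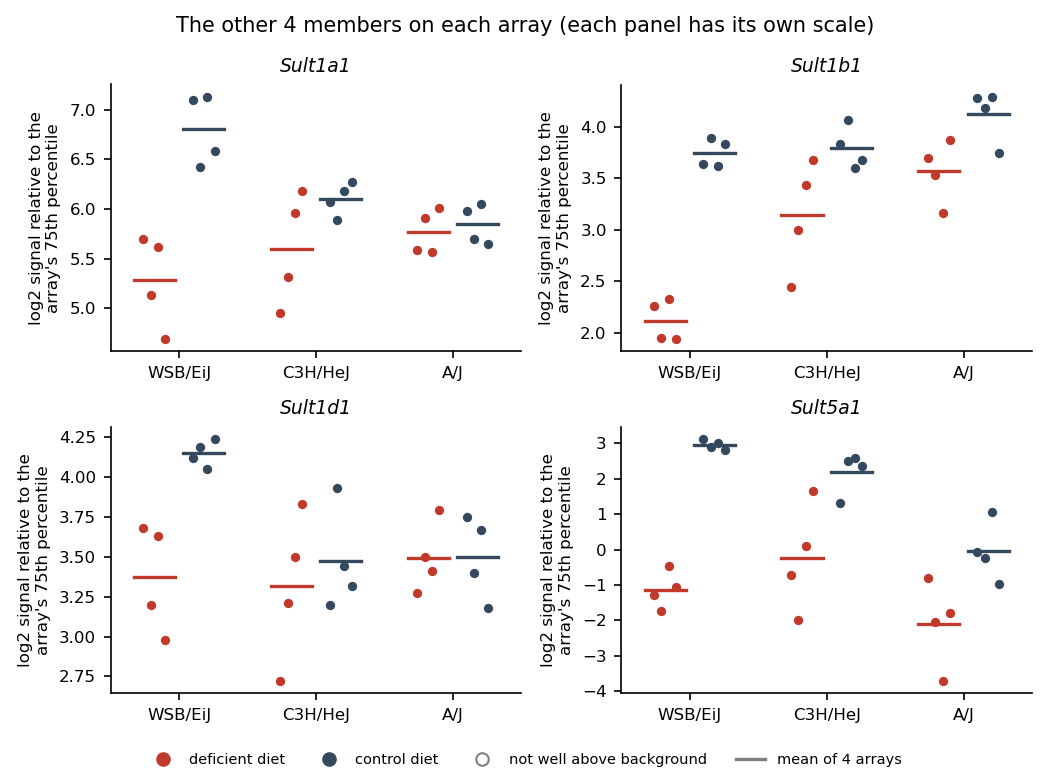
Sult1a1, Sult1b1, Sult1d1 and Sult5a1 on each array as log2 signal relative to the array's 75th percentile, each panel on its own scale, with the deficient diet in red, the control diet in dark blue and bars at the mean of 4 arrays. In WSB/EiJ all 4 deficient arrays lie below all 4 control arrays for each of these genes.

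Sult1a1 fell by 1.52 ± 0.25 in WSB/EiJ (2.87-fold, limma adjusted p = 1.5e-05), and with spike-in scaling by 0.61 (adjusted p = 0.0170). The difference was −0.50 in C3H/HeJ (adjusted p = 0.0980, interval −1.01 to 0.01), which reached −0.69 (adjusted p = 0.0229) without C3H/HeJ deficient replicate 4, and −0.08 in A/J (adjusted p = 0.868, interval −0.59 to 0.44). The second Sult1a1 probe gave −1.50, −0.48 and −0.07 in WSB/EiJ, C3H/HeJ and A/J. The diet difference was lower in WSB/EiJ than in A/J by −1.44 ± 0.35 (limma adjusted p = 0.00221). It was also lower than in C3H/HeJ, by −1.02 ± 0.35 (adjusted p = 0.0359), but that call was lost in 8 of 16 fits with 1 array left out: C3H/HeJ control replicates 1 and 2, C3H/HeJ deficient replicates 3 and 4, WSB/EiJ control replicates 1 and 3, and WSB/EiJ deficient replicates 2 and 4 (−1.01 to −0.82). Quantile normalization gave −0.54 (adjusted p = 0.181) and spike-in scaling −0.63 (adjusted p = 0.154). C3H/HeJ minus A/J in diet effect was −0.42 (adjusted p = 0.498). Within slides the diet difference was −1.16, −0.80 and −2.18 in WSB/EiJ, −0.20, −1.17 and −0.57 in C3H/HeJ and −0.41, −0.09 and −0.09 in A/J. No strain difference in Sult1a1 was called on the deficient diet, the largest being WSB/EiJ minus A/J at −0.48 (adjusted p = 0.0965, interval −0.99 to 0.03).

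Sult1b1, which acts on phenols and thyroid hormones, had its lowest levels in WSB/EiJ livers on the deficient diet. WSB/EiJ livers had 2.26, 1.95, 2.33 and 1.94 on the deficient diet, against 3.64, 3.89, 3.62 and 3.83 on the control diet. C3H/HeJ livers had 2.45, 3.00, 3.43 and 3.68 on the deficient diet, against 3.83, 4.06, 3.60 and 3.68 on the control diet. A/J livers had 3.70, 3.53, 3.16 and 3.87 on the deficient diet, against 4.28, 4.18, 4.29 and 3.74 on the control diet. The control levels of the 3 strains overlapped, and the 4 WSB/EiJ deficient arrays were the lowest of all 24.

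Sult1b1 fell by 1.62 ± 0.21 in WSB/EiJ (3.08-fold, limma adjusted p = 8.4e-07), and by 0.71 with spike-in scaling (adjusted p = 3.5e-04). In C3H/HeJ it fell by 0.65 ± 0.21 (adjusted p = 0.0144), a call lost without C3H/HeJ deficient replicate 1 (−0.42, adjusted p = 0.0751) and with spike-in scaling (−0.12, adjusted p = 0.526). In A/J the difference was −0.55 (adjusted p = 0.0918), called without A/J control replicate 4 (−0.68, adjusted p = 0.0464). The diet difference was lower in WSB/EiJ than in A/J by −1.07 ± 0.29 (limma adjusted p = 0.00541) and than in C3H/HeJ by −0.97 ± 0.29 (adjusted p = 0.0198), and neither was called with spike-in scaling (−0.53 and −0.59, adjusted p = 0.0621 and 0.0652), nor the second with median centring (−0.85, adjusted p = 0.0687). C3H/HeJ minus A/J in diet effect was −0.10 (adjusted p = 0.874). Within slides the diet difference was −1.46, −1.56 and −1.69 in WSB/EiJ, −0.12, −1.26 and −1.06 in C3H/HeJ and −1.12, −0.59 and −0.26 in A/J. On the deficient diet WSB/EiJ was lower than A/J by −1.45 ± 0.21 (limma adjusted p = 6.5e-06) and lower than C3H/HeJ by −1.02 ± 0.21 (adjusted p = 3.9e-04). Within slides these differences were −0.9, −1.37 and −1.76 from A/J and −1.29, −0.12 and −1.05 from C3H/HeJ. On the same diet C3H/HeJ minus A/J was −0.43 (adjusted p = 0.154), and −0.61 (adjusted p = 0.0301) without C3H/HeJ deficient replicate 4.

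Sult1d1, the catecholamine sulfotransferase of mice, had 1 diet call, in WSB/EiJ, and that call depended on the scaling. WSB/EiJ livers had 3.68, 3.20, 3.63 and 2.98 on the deficient diet, against 4.12, 4.19, 4.05 and 4.24 on the control diet, with no overlap. C3H/HeJ livers had 2.72, 3.21, 3.50 and 3.83 on the deficient diet, against 3.20, 3.93, 3.44 and 3.32 on the control diet, and A/J livers had 3.27, 3.50, 3.41 and 3.79 on the deficient diet, against 3.75, 3.40, 3.67 and 3.18 on the control diet. Sult1d1 fell by 0.78 ± 0.21 in WSB/EiJ (1.72-fold, limma adjusted p = 0.00227), but the difference was −0.32 with quantile normalization (adjusted p = 0.122), −0.33 with normexp (adjusted p = 0.140) and 0.13, the opposite sign, with spike-in scaling (adjusted p = 0.532). It was −0.16 in C3H/HeJ (adjusted p = 0.552, interval −0.59 to 0.28) and −0.01 in A/J (adjusted p = 0.989, interval −0.44 to 0.43). WSB/EiJ minus A/J in diet effect, −0.77 ± 0.30 (adjusted p = 0.0347), was lost in 8 of 16 fits with 1 array left out (replicates 2 and 4 of each of the 4 groups, −0.77 to −0.64) and with quantile, median, normexp and spike-in scaling. WSB/EiJ minus C3H/HeJ in diet effect was −0.62 (adjusted p = 0.120), and −0.82 (adjusted p = 0.0279) without C3H/HeJ deficient replicate 1, and C3H/HeJ minus A/J was −0.15 (adjusted p = 0.793). Within slides the diet difference was −0.47, −0.56 and −1.03 in WSB/EiJ, 0.35, −0.60 and −0.72 in C3H/HeJ and −0.34, −0.02 and −0.02 in A/J. A second Sult1d1 probe, well above background on all 24 arrays, gave −1.26 in WSB/EiJ, 0.44 in C3H/HeJ and −0.19 in A/J, so the 2 probes disagree in C3H/HeJ. Its differences in diet effect, not tested, were −1.69 for WSB/EiJ minus C3H/HeJ and −1.06 for WSB/EiJ minus A/J (SE 0.41 each). For C3H/HeJ minus A/J it gave 0.63. No strain difference was called on the deficient diet, where the 3 estimates lay between −0.18 and 0.05.

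**Figure D4:**
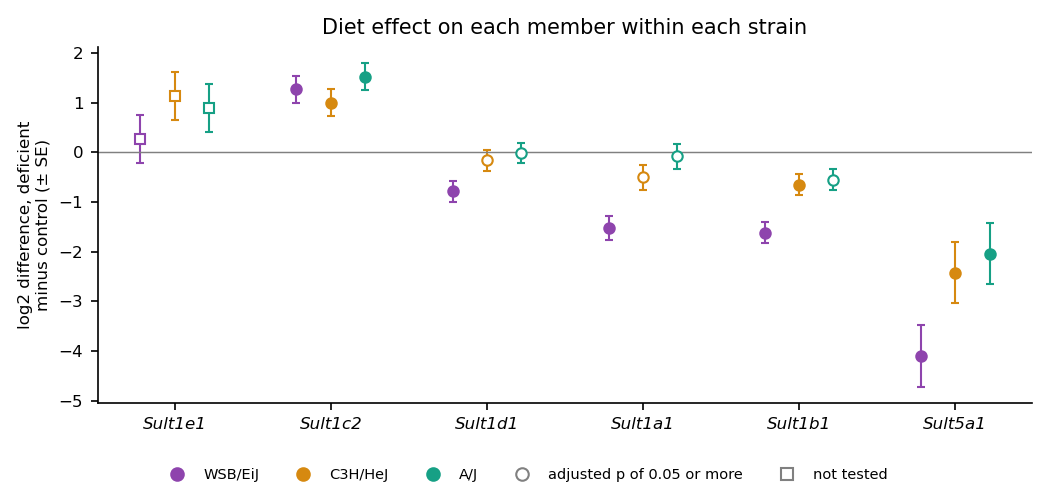
Diet effect on each member, as the log2 difference of deficient minus control ± SE from the limma fit, in WSB/EiJ (purple), C3H/HeJ (orange) and A/J (green). Filled circles passed an adjusted p of 0.05, open circles did not, and open squares (Sult1e1) were not tested. Sult1c2 lies above 0 and Sult5a1 below 0 in all 3 strains, and Sult1a1, Sult1b1 and Sult1d1 are lowest in WSB/EiJ.

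Counted over the 5 members other than Sult1e1, the diet effect was called for 5 in WSB/EiJ (1 higher, 4 lower), for 3 in C3H/HeJ (1 higher, 2 lower) and for 2 in A/J (1 higher, 1 lower), beside 74.1%, 48.5% and 10.7% of all genes. The median member difference was −1.52, −0.50 and −0.08, beside all-gene medians of −0.34, −0.16 and −0.06. The 5 members did not overlap between diets in WSB/EiJ, as for 70.4% of all genes, and 1 did not in C3H/HeJ (35.2%) and in A/J (17.8%). The diet effect differed between WSB/EiJ and A/J for 3 of 5 members (51.1% of all genes), between WSB/EiJ and C3H/HeJ for 2 of 5 (26.5%) and between C3H/HeJ and A/J for 0 of 5 (3.71%). Strains differed on the deficient diet for 3 of all 6 members between WSB/EiJ and A/J (60.6% of all genes), for 3 between WSB/EiJ and C3H/HeJ (52.4%) and for 1 between C3H/HeJ and A/J (22%). Each count stands on 5 or 6 genes, the comparisons share arrays, and nothing particular to the members is read from the counts. On the control diet 5 of 6 members did not overlap between WSB/EiJ and A/J, and 5 of 6 between WSB/EiJ and C3H/HeJ, against 46% and 42% of all genes, which is a description of the contrast used in the choice. Over the 24 arrays Sult1a1 correlated with Sult1d1 at r = 0.806 and with Sult5a1 at r = 0.741, a description in which the arrays share strain and diet.

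Of the other sulfotransferases, those called for the diet effect were all lower: 3 of 4 tested in WSB/EiJ, 2 in C3H/HeJ and 2 in A/J. The shares of all genes called lower were 50.3%, 31% and 4.89%, and nothing particular to these sulfotransferases is read from the counts. Of the 15 listed, 14 had a probe and 4 were tested, while 10 lay at or near background; Sult1c1, Sult2a3, Sult3a1, Sult3a2, Sult6b1 and Sult6b2 were above background on no array. Sult2a8 encodes a liver enzyme that sulfonates bile acids in mice. In WSB/EiJ it stood at 2.92, 3.52, 3.84 and 3.32 on the deficient diet, against 7.52, 7.50, 7.62 and 7.63 on the control diet. C3H/HeJ had 5.42, 5.62, 6.54 and 7.42 on the deficient diet, against 7.77, 8.01, 7.98 and 7.78 on the control diet, and A/J had 6.94, 7.12, 6.83 and 7.27 on the deficient diet, against 7.51, 7.49, 7.64 and 7.02 on the control diet. The 12 control arrays lay between 7.02 and 8.01, and the deficient WSB/EiJ arrays stood far below all others.

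Sult2a8 fell by 4.17 ± 0.29 in WSB/EiJ (18-fold, limma adjusted p = 3.9e-10) and by 1.63 ± 0.29 in C3H/HeJ (adjusted p = 2.0e-04), and differed by −0.38 in A/J (adjusted p = 0.424). The diet difference was lower in WSB/EiJ than in A/J by −3.79 (adjusted p = 1.5e-06) and than in C3H/HeJ by −2.54 (adjusted p = 2.4e-04). C3H/HeJ minus A/J was −1.26 (adjusted p = 0.0964), and −1.65 (adjusted p = 0.00278) without C3H/HeJ deficient replicate 4. Sult2a7, a relative of the hydroxysteroid sulfotransferases, fell by 3.44 ± 0.41 in WSB/EiJ (10.8-fold, adjusted p = 4.2e-07). In A/J it differed by −1.43 (adjusted p = 0.0310), a call lost without any 1 of replicates 1, 2 and 3 of either diet (−1.48 to −1.22). In C3H/HeJ it differed by −0.98 (adjusted p = 0.0554), and by −1.28 to −1.13 with a call without control replicate 3 or 4 or deficient replicate 3 or 4. Sult4a1, best known from brain, fell by 2.28 ± 0.19 in WSB/EiJ (adjusted p = 2.7e-09), by 1.20 ± 0.19 in C3H/HeJ (adjusted p = 5.5e-05) and by 1.05 ± 0.19 in A/J (adjusted p = 0.00124). These 3 falls of Sult4a1 kept their direction and call with spike-in scaling (−1.37, −0.67 and −0.68), but they rest on a single probe. A second Sult4a1 probe was well above background on no array, and another only on 2 of 4 C3H/HeJ deficient arrays. Sult2b1, close to background, was not called in any comparison as scaled here. It passed the background filter only through WSB/EiJ on the deficient diet, with 4 of 4 arrays above background. Each other group had 0 to 2 of 4. The Sult2b1 diet difference in WSB/EiJ, 1.39 (adjusted p = 0.107), was called with spike-in scaling (2.31, adjusted p = 0.0159) and without WSB/EiJ control replicate 3 (1.86, adjusted p = 0.0449). WSB/EiJ minus A/J on the deficient diet, 1.54 (adjusted p = 0.0882), was called without A/J deficient replicate 3 (1.93, adjusted p = 0.0480) or with only these groups in the fit (adjusted p = 0.0192). Both contrasts set the group that admitted the gene against a group near background, so no result is read from these calls. Several Sult2a genes are near-identical copies, and how far probes of the Sult2a genes share signal was not tested.

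**Figure D5:**
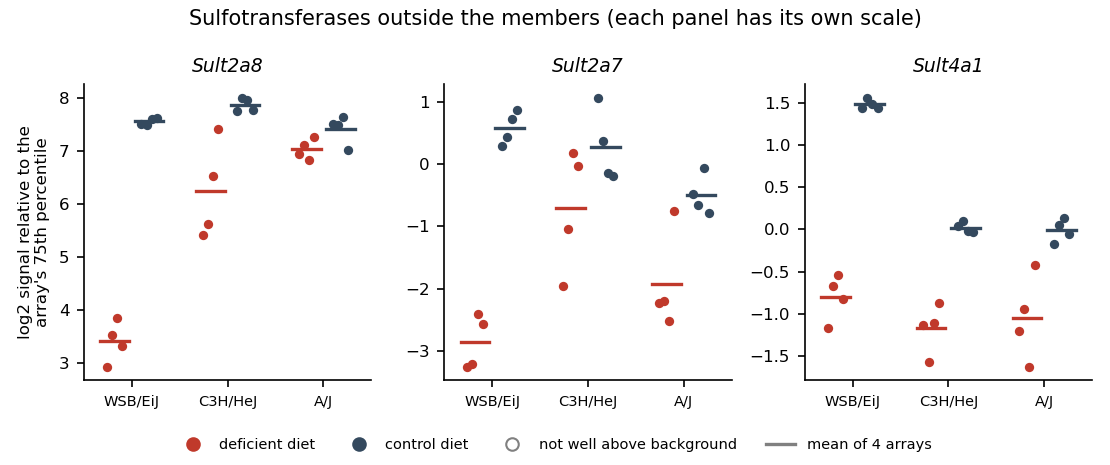
Sult2a8, Sult2a7 and Sult4a1 on each array as log2 signal relative to the array's 75th percentile, each panel on its own scale, with the deficient diet in red, the control diet in dark blue and bars at the mean of 4 arrays. The WSB/EiJ deficient arrays lie below all WSB/EiJ control arrays in each panel.

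Of 14 tested genes of PAPS synthesis and sulfate supply, 1 was higher and 8 lower on the deficient diet in WSB/EiJ. In C3H/HeJ 1 was higher and 6 lower, and in A/J 0 higher and 2 lower. With spike-in scaling the counts were 8 and 5, 7 and 1, and 2 and 2. Beside these, 23.8%, 17.5% and 5.85% of all genes were called higher in WSB/EiJ, C3H/HeJ and A/J, and 50.3%, 31% and 4.89% lower. Papss2, the main PAPS synthase of liver, fell by 1.94 ± 0.20 in WSB/EiJ (limma adjusted p = 5.7e-08), by 0.74 ± 0.20 in C3H/HeJ (adjusted p = 0.00526, but −0.21 with an adjusted p = 0.353 on spike-in scaling) and by 0.90 ± 0.20 in A/J (adjusted p = 0.00649). Ethe1, a mitochondrial enzyme of sulfide oxidation, fell by 2.18 in WSB/EiJ (limma adjusted p = 2.7e-09), by 0.87 in C3H/HeJ (limma adjusted p = 6.9e-04, but −0.34 with an adjusted p = 0.128 on spike-in scaling) and by 1.39 in A/J (limma adjusted p = 5.7e-05). Suox, which oxidises sulfite to sulfate, fell by 1.81 ± 0.19 in WSB/EiJ (adjusted p = 9.7e-08). Slc13a4, a sulfate transporter, was lower in WSB/EiJ than in A/J (−2.85 ± 0.42, adjusted p = 1.1e-05) and than in C3H/HeJ (−4.25 ± 0.42, adjusted p = 7.9e-08) on the deficient diet.

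Sulfatases remove sulfate groups. Of 13 tested genes of sulfatases and their activators, 4 were higher and 7 lower on the deficient diet in WSB/EiJ (8 and 2 with spike-in scaling). The counts were 3 and 3 in C3H/HeJ (8 and 1), and 2 and 1 in A/J (4 and 0). The shares of all genes called higher were 23.8%, 17.5% and 5.85% in WSB/EiJ, C3H/HeJ and A/J, and lower 50.3%, 31% and 4.89%. Galns fell by 1.21 ± 0.16 in WSB/EiJ (limma adjusted p = 1.2e-06). Arsg and Arsa, both lysosomal, rose in A/J by 1.32 ± 0.13 (adjusted p = 4.0e-06) and 1.16 ± 0.12 (adjusted p = 5.1e-06). Sulf1, an extracellular enzyme that trims heparan sulfate, rose by 2.17 ± 0.58 in WSB/EiJ (adjusted p = 0.00225).

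Of 21 tested nuclear receptors and liver transcription factors, several of which are known to control sulfotransferase genes, 2 were higher and 17 lower on the deficient diet in WSB/EiJ, 2 and 5 in C3H/HeJ, and 1 and 2 in A/J. Among all genes 23.8%, 17.5% and 5.85% were called higher in WSB/EiJ, C3H/HeJ and A/J, and 50.3%, 31% and 4.89% lower. The split of these factors depends on the scaling. It was 4 and 9 in WSB/EiJ with quantile normalization. With spike-in scaling it was 8 and 2, 7 and 0, and 6 and 0. Nr1i3, which encodes the drug-sensing receptor CAR, fell by 2.96 ± 0.25 in WSB/EiJ (limma adjusted p = 5.2e-09) and differed by −0.13 in C3H/HeJ (adjusted p = 0.695) and −0.01 in A/J (adjusted p = 0.981). Pparg, a regulator of fat storage, rose in all 3 strains, by 1.97 ± 0.22 in WSB/EiJ (adjusted p = 1.9e-07), 1.48 ± 0.22 in C3H/HeJ (adjusted p = 4.0e-05) and 1.24 ± 0.22 in A/J (adjusted p = 0.00136).

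Because several sulfotransferases differ between the sexes in mouse liver, sex-biased genes were read in these male livers. Of 13 tested male-biased genes, 13 were lower on the deficient diet in WSB/EiJ, 13 in C3H/HeJ and 3 in A/J, with 0 higher. With spike-in scaling 11, 8 and 2 were lower. All-gene shares called lower were 50.3%, 31% and 4.89%, and called higher 23.8%, 17.5% and 5.85%. Elovl3, a fatty acid elongase, fell by 7.50 ± 0.55 in WSB/EiJ (limma adjusted p = 7.3e-10). Its difference was −2.93 ± 0.55 in C3H/HeJ (adjusted p = 3.2e-04) and −2.70 ± 0.55 in A/J (adjusted p = 0.00376). Of 11 tested female-biased genes, 3 were higher and 4 lower in WSB/EiJ (5 and 2 with spike-in scaling), 5 and 1 in C3H/HeJ (5 and 0), and 1 and 1 in A/J (4 and 1). Cyp2b13, a female-biased cytochrome, rose by 6.47 ± 0.74 in C3H/HeJ (adjusted p = 2.0e-06), and Cyp2b9 rose there by 3.12 ± 0.55 (adjusted p = 1.7e-04) but fell by 3.59 ± 0.55 in WSB/EiJ (adjusted p = 7.2e-06). The largest female-biased change in WSB/EiJ was a rise, that of Cyp39a1 by 4.14 ± 0.36 (limma adjusted p = 5.3e-09). On the deficient diet 9 of the 11 female-biased genes were lower in WSB/EiJ than in A/J and 1 was higher, and of the 13 male-biased genes 8 were lower and 3 higher, beside 60.6% of all genes called in that comparison.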

How the data were processed

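Liver RNA (0.5 ug, Cy3) of 24 samples was hybridised to 1-colour Agilent mouse arrays on 3 slides of 8. Per the file headers, the deposited intensity of each spot is the processed signal of Agilent Feature Extraction 10.7 (also named in the submitters' processing notes), with background and spatial trends removed and no scaling between arrays. The flags for spots above background, saturated or outlying are 0 or 1 per the file headers. The deposited table of the authors' normalized intensity is the processed signal multiplied by a constant of each array and was used as an alternative.

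Outlier-flagged spots (3332) were left out, replicate spots averaged and log2 signals scaled on the array's 75th percentile. Of 55681 gene probes, 31660 were given a gene name and 24021 were not. A probe was tested if at least 1 group had all 4 arrays well above background, and the brightest probe represented a gene, which gave 15084 genes. limma 3.58.1 (R 4.3.3) was fitted to the 6 group means over all 24 arrays, with Benjamini-Hochberg adjustment over all genes at 0.05, after a test on simulated data. The number of arrays limits the precision. Fold values are 2 to the power of the size of the log2 difference.

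The 6 members and the gene lists were chosen with earlier results of these data known. All 6 members are named, and of each list at most the 4 called genes with the largest difference. Numbers shared by samples of different groups did not pair them: deviations from the group means of same-numbered samples correlated at −0.408 to 0.542 (mean −0.024, against 0.008 for different numbers). Slides hold all groups, and within-slide values of the diet effects and the largest strain differences are given. Promoters and gene order come from RefSeq (GRCm38.p6), probe positions (mm9) from the array files. The alternatives were other scalings, background corrections, filters, probes, blocks, priors and arrays left out.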

Additional observations from a re-analysis of the deposited data

Results flagged for a closer look

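The Sult5a1 value of C3H/HeJ control replicate 1, 1.30, stood apart from the other 3 control arrays of the strain (2.49, 2.58 and 2.36): its gap to the nearest, divided by the range of the group, exceeded the 95% critical value of Dixon's test for 4 samples. It was the only such value among 36 sets of 4 arrays of the members, and chance gives about 1 in 20.

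Diet effects of 3 members differed between strains by the interaction term of the limma fit over 24 arrays. For Sult1a1 the diet difference was lower in WSB/EiJ than in A/J by −1.44 (adjusted p = 0.00221) and lower than in C3H/HeJ by −1.02 (adjusted p = 0.0359). For Sult1b1 the corresponding differences were −1.07 (adjusted p = 0.00541) and −0.97 (adjusted p = 0.0198). For Sult1d1, WSB/EiJ minus A/J was −0.77 (adjusted p = 0.0347). With 1 array left out or another scaling, the Sult1a1 difference from A/J kept its call in every fit, but that from C3H/HeJ and the Sult1d1 difference were each lost in 8 of 16 fits with 1 array left out and under several scalings, and both Sult1b1 differences were lost with spike-in scaling, that from C3H/HeJ also with median centring. In the same comparisons the differences passed the test for 51.1% (WSB/EiJ minus A/J) and 26.5% (WSB/EiJ minus C3H/HeJ) of all genes.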

How the results depend on the processing

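Of 84 tested results on 10 sulfotransferases, 41 kept direction and call in every alternative (1709 of 1875 values did). Sult1e1 on the deficient diet stayed at 6.70 to 7.21 (WSB/EiJ minus A/J) and 6.62 to 7.45 (WSB/EiJ minus C3H/HeJ) with any 1 array left out, while C3H/HeJ minus A/J ran from −0.50 to 0.33 (0.11 without A/J deficient replicate 4, 0.33 without C3H/HeJ deficient replicate 1). Stricter filters leave fewer genes and left-out arrays fewer samples; the cause of the other changes was not tested. The signal of dim probes, such as Sult1c2 in WSB/EiJ, is limited by background.

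Members called for the diet effect in A/J, 2 here, were 1 with median centring, normexp, no background filter, probes above background on every array only (4 members tested), only the compared groups in the fit, or the replicate block, and 1 to 3 with 1 array left out. In WSB/EiJ 5 became 3 with normexp, and the Sult1d1 call was also lost with quantile normalization and spike-in scaling. On the deficient diet the 1 member called between C3H/HeJ and A/J became 0 without the background filter or with only the compared groups (0 to 1 with 1 array left out), and the 3 called between WSB/EiJ and either other strain became 1 with probes above background on every array only. For WSB/EiJ minus A/J in diet effect, 3 became 1 with spike-in scaling. For WSB/EiJ minus C3H/HeJ, 2 became 1 with quantile normalization, normexp, no background filter, the slide block or only the compared groups, 0 with median centring or spike-in scaling, and 1 to 3 with 1 array left out.

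Replicate numbers as a block moved Sult5a1 in A/J to an adjusted p of 0.0523 and no other member's call; genes called for the diet effect were then 11091 in WSB/EiJ, 7053 in C3H/HeJ and 1504 in A/J, against 11183, 7322 and 1619 without the block. Genes called moved by more than 1.5 times for the diet effect in A/J (4412 with spike-in scaling, 904 with only the compared groups, 773 to 2216 with 1 array left out), for C3H/HeJ minus A/J in diet effect (560 here, 242 with spike-in scaling, 336 without the filter, 232 with only the compared groups, 324 to 1948 with 1 array left out) and for WSB/EiJ minus C3H/HeJ (4003 here, 2550 with median centring, 2661 with spike-in scaling, 2980 to 4802 with 1 array left out). With median centring 41.1%, 44.3% and 74.4% of the diet calls were higher in WSB/EiJ, C3H/HeJ and A/J. Of calls on the deficient diet, 39.1% were higher in WSB/EiJ than in A/J (50.5% with quantile normalization, 57.5% with median centring, 62.7% with spike-ins), 40.9% higher than in C3H/HeJ (51.5%, 60.6%, 59.5%), and 50.7% were higher in C3H/HeJ than in A/J (63.7% with spike-ins). Of calls for differences in diet effect, 32.8% were higher for WSB/EiJ minus A/J (50.6% with quantile normalization, 78.5% with spike-ins), 35.2% for WSB/EiJ minus C3H/HeJ (54.5%, 78%) and 58.4% for C3H/HeJ minus A/J (76% with spike-ins).

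Signs turned in the following differences, none of which was called with the turned sign. With normexp Sult1a1 in A/J became 0.07, Sult1b1 C3H/HeJ minus A/J in diet effect 0.08, Sult1c2 WSB/EiJ minus C3H/HeJ in diet effect −0.70, Sult1d1 in A/J 0.05 and between WSB/EiJ and A/J on the deficient diet 0.07, and the untested diet effect differences of Sult1e1 0.47 (WSB/EiJ minus A/J) and 0.41 (WSB/EiJ minus C3H/HeJ). With quantile normalization Sult1a1 in A/J became 0.07, and Sult1d1 0.06 in A/J, 0.01 in C3H/HeJ and 0.08 between WSB/EiJ and A/J on the deficient diet. Spike-in scaling gave Sult1a1 0.30 in A/J and 0.03 in C3H/HeJ, Sult1b1 0.06 for C3H/HeJ minus A/J, Sult1c2 0.28 for WSB/EiJ minus A/J, Sult4a1 0.01 for C3H/HeJ minus A/J, and Sult1d1 0.13 in WSB/EiJ, 0.37 in C3H/HeJ, 0.37 in A/J, 0.15 between WSB/EiJ and A/J on the deficient diet and 0.01 for C3H/HeJ minus A/J. Sult1d1 also turned with median centring (0.06 in A/J, 0.08 between WSB/EiJ and A/J), the deposited table (0.01 in A/J) and the mean of its probes (0.14 in C3H/HeJ, −0.03 between WSB/EiJ and C3H/HeJ on the deficient diet, 0.24 for C3H/HeJ minus A/J).

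With 1 array left out, the ranges of tested differences that crossed 0 were, on the deficient diet, −0.36 to 0.05 for Sult1a1, −0.35 to 0.02 for Sult1d1 and −0.31 to 0.09 for Sult4a1 (C3H/HeJ minus A/J), and for Sult1d1 −0.23 to 0.01 (WSB/EiJ minus A/J) and −0.15 to 0.23 (WSB/EiJ minus C3H/HeJ). For the diet effect they were −0.11 to 0.08 (A/J) and −0.33 to 0.04 (C3H/HeJ) for Sult1d1 and −0.89 to 0.55 (A/J) for Sult2b1. For C3H/HeJ minus A/J in diet effect they were −0.28 to 0.13 for Sult1b1, −0.32 to 0.05 for Sult1d1, −1.01 to 0.19 for Sult5a1 and −0.34 to 0.06 for Sult4a1, and for WSB/EiJ minus C3H/HeJ −0.03 to 0.83 for Sult2b1. Without a test, Sult1e1 ran from −0.01 to 0.58 for the diet effect in WSB/EiJ and from −0.16 to 0.67 for C3H/HeJ minus A/J, and on the control diet Sult1b1 from −0.11 to 0.04 (WSB/EiJ minus C3H/HeJ), Sult1c2 from −0.09 to 0.34 and Sult1d1 from −0.18 to 0.07 (C3H/HeJ minus A/J).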
